A study of Mus musculus with 2 samples.

Results

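Gpd1, Slc2a3, Hk2, Tpi1 and Ldha are 5 genes of glucose uptake, glycolysis and glycerol phosphate. They were taken by gene symbol from the platform's annotation, were read by 7 probes (3 for Ldha and 1 for each of the others), and stand among 11484 genes with a symbol on the array. They were picked from the same 2 columns of values that are described here, so their differences are given as a description and no test was made of them. Expression was measured on a 1-colour Phalanx Mouse Whole Genome OneArray v2 in 2 samples of mouse cells of embryonic stage and of the strain C57/ICR. Parental cells, at passage 1, were kept in FBS medium, where FBS is fetal bovine serum. The small-molecule-generated stem cells were at passage 5 in ES medium, a medium for embryonic stem cells. The cell type of the parental cells and the molecule used were not given in the sources used here, and treatment, passage and medium differed together and cannot be told apart. There was 1 column of values per group, so no difference has a replicate check.

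Glucose enters cells through facilitative transporters of the Slc2a (GLUT) family and is trapped by hexokinase as glucose 6-phosphate. Glycolysis then splits the sugar into triose phosphates, which triose phosphate isomerase interconverts, and carries them to pyruvate, which lactate dehydrogenase can reduce to lactate while it restores NAD+. One of the triose phosphates, dihydroxyacetone phosphate, can leave the route through glycerol 3-phosphate dehydrogenase, which also restores NAD+ and supplies the glycerol backbone of lipids. Mouse embryonic stem cells are known for a high glycolytic flux.

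Each value is a normalised intensity of a probe, on a linear scale. The medians over all 13989 probes were 304 in the parental and 305 in the small-molecule stem cells. The 25th percentile of each column, 93.8 and 93.4, served as a floor, and a gene not above it in either sample was called dim and has no fold here. Where 1 of the values was not above the floor, the brighter value was divided by the floor in place of the dimmer one, which gives a bound ("at least"). Among 9766 genes that passed the floor in 1 sample or both, 22.1% were 2-fold or more higher in the small-molecule stem cells and 22.6% were 2-fold or more lower. Shares of all genes given below are of these 9766. With both columns centred on ribosomal protein genes in place of the deposited scale, the higher genes made up 39.3% of all calls and not 49.4%. The median log2 difference over genes above the floor then moved from 0.12 to -0.10. Of 64 ribosomal protein genes 27 were measured, from Rpl37 at 94.7 and 68 to Rpl41 at 56608 and 63615, so some were dim for this use. In 612 genes with 2 probes above the floor in a sample, the SD of a probe's log2 difference about that of its gene was 1.05, or 2.07-fold, a measure of probe error that covers neither cultures nor arrays. Markers were read beside the labels. Their lists were chosen with earlier results of these data known, so they are no independent check. Of 8 measured markers of pluripotent cells 7 were higher in the small-molecule stem cells, with Nanog at 77.7 and 94.7 as the exception. Of 12 fibroblast markers 3 were measured, of which Thy1 and S100a4 were lower and Fbln1 was dim.

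The 5 genes did not move as a block. Gpd1 and Slc2a3 were 324-fold and 75.6-fold higher in the small-molecule stem cells, Hk2 was 3.0-fold higher, Tpi1 differed by 1.19-fold, and Ldha, averaged over 3 probes that disagreed, was 2.04-fold lower. Of the 5, 3 were thus 2-fold or more higher, where 22.1% of all genes were, and 1 was lower, where 22.6% were. These shares are given beside the count, and nothing is read from them because the genes were chosen on this contrast. All 5 were above the floor in both samples, and the value nearest to it was that of Gpd1 in the parental cells, 1.37 times the floor. In a bulk sample, fewer cells of a type and less RNA per cell cannot be told apart.

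**Figure D1:**
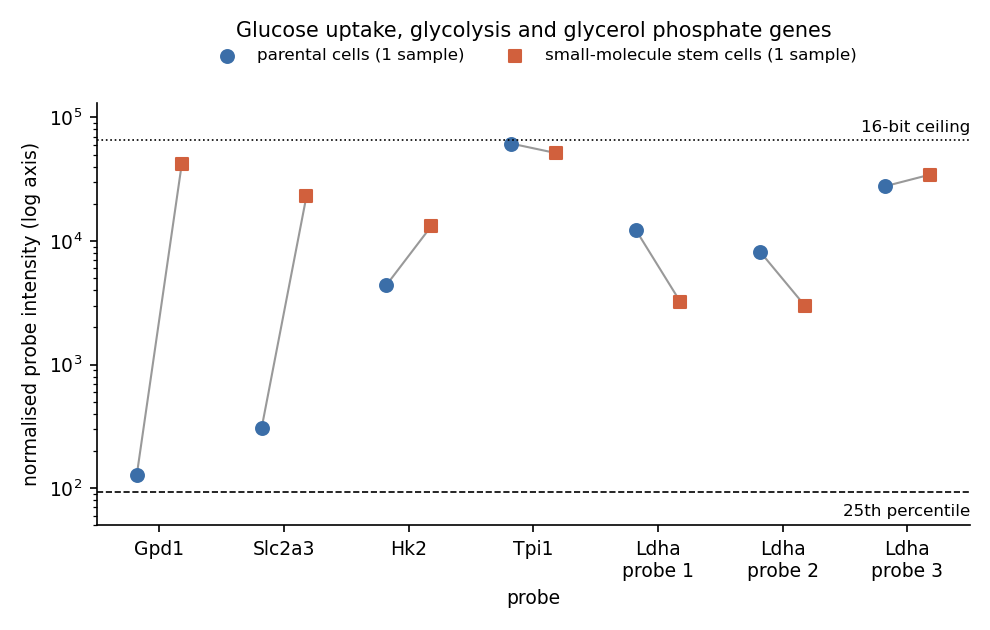
Normalised intensity (log axis) of each probe of the 5 genes in the parental cells (circles) and the small-molecule-generated stem cells (squares), with 1 sample each and a grey line joining the values of a probe. The dashed line is the mean of the 2 floors (25th percentiles) and the dotted line the ceiling of a 16-bit scanner, 65535. Gpd1 goes from 129 to 41805 and Slc2a3 from 304 to 22997. Tpi1 is just under the ceiling in both samples, and the 3 Ldha probes go both ways.

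Slc2a3 encodes GLUT3, a high-affinity glucose transporter of neurons and early embryos. It read 304 in the parental sample, at the median of all probes, and 22997 in the small-molecule stem cells, where 121 probes were brighter. Its log2 difference of 6.24 was 5.93 times the probe SD, the 5th highest among the 8211 genes that both samples had above the floor and the 23rd among the 9766 that passed it in 1 sample or both. The other sugar transporters did not show a difference of that size. Slc2a1, the GLUT1 transporter found in most growing cells, read 2765 and 3809, a 1.38-fold difference. Slc2a4, the insulin-regulated transporter of muscle and fat, read 206 and 303. Slc2a8, an intracellular transporter, was 3.11-fold higher at 729 and 2267. Slc2a13, a proton-coupled inositol transporter, was at least 3.82-fold lower at 357 and 93.4. Of the 10 measured genes of 14 in the transporter list, 3 were higher and 2 lower, or 2 and 1 by their bounds, and 1 was dim. Of all genes, 22.1% were higher and 22.6% lower, or 20.5% and 20.8% by bounds. Slc2a7 (61.7 and 163) and Slc2a10 (146 and 26.5) are the members whose call is lost that way, since their bounds are 1.73-fold and 1.56-fold. The median log2 difference of the 10 genes was 0.53, beside 0.12 over all genes above the floor.

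Markers of neurons, in which Slc2a3 is known to be abundant, and of other cell types were read beside it. Of 9 measured neuron markers of 10, 6 were higher in the small-molecule stem cells (4 after centring on ribosomal protein genes), 1 was lower and 1 was dim. Of all genes, 22.1% were higher and 22.6% lower. Their summed intensity went from 2410 to 7532, with Stmn2, a microtubule regulator of neurons, at 206 and 2602 and Nefl, a neurofilament gene, at 36.7 and 664. The lower marker was Map2, a microtubule protein gene of dendrites, at 395 and 95.3, and Tubb3, a neuronal tubulin gene, read 663 and 745. The neuron-defining gene Rbfox3 was dim in both samples, at 54.9 and 84.4. Pluripotency markers summed to 804 and 97936. Macrophage markers, of which 5 of 10 were measured, summed to 6209 and 939, and 3 were lower, where 22.6% of all genes were. The part of these cell types in the Slc2a3 value was not tested.

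Hk2 encodes hexokinase 2, the inducible, mitochondria-bound form of the enzyme that traps glucose in the cell. Its probe read 4382 in the parental and 13142 in the small-molecule stem cells. The log2 difference of 1.58 was 1.51 times the probe SD, and it ranked 788th among the 8211 genes above the floor in both samples. Under the alternatives run it lay between 1.36, with centring on ribosomal protein genes, and 1.61. Hk3, the hexokinase of blood cells, was at least 2.92-fold lower, at 273 and 67.2. Hk1 and Hkdc1 were not analysed here, so total hexokinase expression was not read. Adpgk, an ADP-dependent hexose kinase, read 1409 and 944.

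Tpi1 encodes triose phosphate isomerase, which joins glycolysis to the glycerol phosphate branch. It was bright in both samples, at 61581 in the parental sample and 51562 in the other. Only 8 probes of 13989 were brighter in the parental column, and 21 in the other. The log2 difference was -0.26 as deposited and lay between -0.57 and -0.23 under the alternatives run, within 1 probe SD. Both values are near the scanner's ceiling of 65535. Whether that compressed the difference was not tested, and the scanner's saturation flags were not analysed here. Pkm, the pyruvate kinase of growing cells, read 65493 and 65303, at the ceiling in both samples, and is given no fold.

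Among the other 13 measured enzymes from glucose to pyruvate, 9 were above the floor. Of these 9, 5 were 2-fold or more higher and 2 were lower, where 22.1% and 22.6% of all genes above the floor were. Of all 15 measured genes of the 26 in the list, Hk2 and Tpi1 included, 6 were 2-fold or more higher, 2 were lower, 3 differed by less and 4 were dim. Centring on ribosomal protein genes left 3 higher and 2 lower. The median log2 difference was -0.0042 over all 15 genes and 1.15 over the 11 above the floor, so it depends on the dim genes, and the former is the reading of Pkm, which is at the ceiling. Aldoc, the aldolase of brain, was 6.75-fold higher at 400.0 and 2702, and Aldoa, the aldolase of muscle and most growing cells, 2.23-fold higher at 15214 and 33858. Pfkm, the muscle type of phosphofructokinase, was 2.47-fold higher at 1008 and 2485. Pklr, the pyruvate kinase of liver and red cells, was 2.28-fold higher at 2441 and 5577, and Pgam2, the muscle phosphoglycerate mutase, 2.23-fold higher at 119 and 267. The differences of Aldoa, Pklr and Pgam2, between 1.15 and 1.19 on the log2 scale, are little more than 1 probe SD. Eno2, the neuronal enolase, was 2.65-fold lower at 1735 and 655. Gapdh, Gpi1, Pfkl, Pgk1, Pgam1 and Eno1, the forms of most growing cells at their steps, were not analysed here. The 3 measured genes that set fructose 2,6-bisphosphate, an activator of phosphofructokinase, differed by less than 2-fold as deposited, with Pfkfb3 at 1548 and 1335, and 1 of them was lower after centring on ribosomal protein genes.

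Ldha encodes the M subunit of lactate dehydrogenase, the form that favours lactate production. Its 3 probes gave 3 different readings. Probe 1 read 12384 in the parental and 3205 in the small-molecule stem cells, 3.86-fold lower. Probe 2 read 8157 and 2977, 2.74-fold lower. Probe 3, the brightest, read 27754 and 34447, 1.24-fold higher. On the log2 scale the differences were -1.95, -1.45 and 0.31, with a mean of -1.03 and an SD of 1.19 over the 3 probes. The spread from lowest to highest was 2.26, or 4.80-fold. Such disagreement was not rare on this array. Of 28 genes with 3 or more probes above the floor in a sample, 11 (39.3%), Ldha among them, had a spread at least as wide, and in 14 (50%) the probes differed in sign. The 2-fold call for Ldha therefore rests on how its probes are combined. The median of the probes is -1.45, and the brightest probe alone turns the sign. Where in the transcript each probe lies, and which transcript it reads, was not analysed here.

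**Figure D2:**
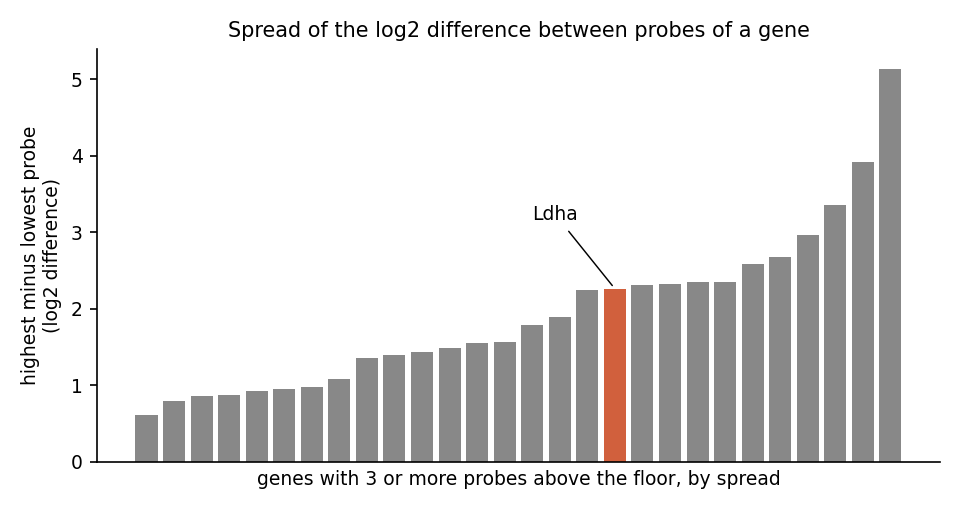
Highest minus lowest log2 difference among the probes of a gene, for the 28 genes with 3 or more probes above the floor in a sample, 1 bar per gene in rising order. Ldha, in orange, has a spread of 2.26, and 10 genes have a wider one, while the median of the 28 is 1.68.

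Ldhb, which encodes the H subunit of the same enzyme, was 7.78-fold higher in the small-molecule stem cells, at 1848 and 14387 in its 1 probe. The 2 subunits form mixed tetramers, and that of Ldhb is known to favour the use of lactate. Ldha and Ldhb thus differed in direction when the Ldha probes are averaged, and in size but not in sign when the brightest Ldha probe is taken. The lactate exporter gene Slc16a3 read 1000.0 and 1457. Its chaperone Bsg, or basigin, read 11349 and 6275, and Emb, or embigin, the chaperone of a related transporter, 404 and 750, both under 2-fold. Of 6 measured genes of 10 in the lactate list, 1 was dim, and after centring on ribosomal protein genes 2 were lower. As deposited, 1 was higher and 1 was lower, where 22.1% and 22.6% of all genes were. The lower one is Ldha itself, and with its brightest probe, or without Ldha, none was lower. Slc16a1, the most general monocarboxylate transporter, was not analysed here.

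The promoter windows of the members were searched for ACGTG, a form of the core motif of oxygen control, and for the E-box of MYC control. Windows of 250 bases up to the transcription start, from RefSeq (GRCm38.p6), were matched by symbol for 3 of the 5 genes, Hk2, Ldha and Tpi1, with 2 starts for Ldha. They are shown because the Hk2 window and 1 Ldha window share a motif that the Tpi1 window lacks, and because the 2 starts of Ldha differ in it. Capitals mark ACGTG on either strand, a form of the core of the site bound by hypoxia-inducible factors. Other forms of that core were not searched for. ACGTG overlaps the E-box CACGTG, the site bound by MYC proteins.
Hk2, chr6:82774455-82774704, minus strand: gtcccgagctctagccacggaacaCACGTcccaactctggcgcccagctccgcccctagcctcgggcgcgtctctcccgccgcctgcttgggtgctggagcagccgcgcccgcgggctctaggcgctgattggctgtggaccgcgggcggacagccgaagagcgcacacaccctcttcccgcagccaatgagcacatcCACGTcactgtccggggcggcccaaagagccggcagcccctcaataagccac
Ldha, first start, chr7:46845554-46845803, plus strand: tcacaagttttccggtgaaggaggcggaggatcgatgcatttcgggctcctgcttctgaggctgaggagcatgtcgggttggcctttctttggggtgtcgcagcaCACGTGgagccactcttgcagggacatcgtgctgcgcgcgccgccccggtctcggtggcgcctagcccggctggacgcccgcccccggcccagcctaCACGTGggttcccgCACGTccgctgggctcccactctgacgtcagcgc
Ldha, second start, chr7:46846832-46847081, plus strand: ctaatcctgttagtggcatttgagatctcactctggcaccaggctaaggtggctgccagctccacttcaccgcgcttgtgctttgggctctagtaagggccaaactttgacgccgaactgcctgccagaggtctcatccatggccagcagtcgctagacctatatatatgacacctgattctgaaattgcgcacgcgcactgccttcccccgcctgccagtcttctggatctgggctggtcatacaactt
Tpi1, chr6:124814159-124814408, minus strand: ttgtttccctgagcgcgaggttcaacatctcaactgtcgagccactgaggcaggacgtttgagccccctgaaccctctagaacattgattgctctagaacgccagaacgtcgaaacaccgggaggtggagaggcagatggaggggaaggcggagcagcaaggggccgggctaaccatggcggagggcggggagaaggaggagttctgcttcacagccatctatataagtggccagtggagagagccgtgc
The Hk2 window held ACGTG at 2 sites, whose first letters lay 226 and 52 bases before the start. The window at the first Ldha start held it at 3 sites, 145, 48 and 34 bases before the start, and the first 2 of these are E-boxes. Neither motif was found at the second Ldha start or in Tpi1. Over all 32851 windows of this length, 16.6% held ACGTG, 1.95% at 2 or more sites and 0.256% at 3 or more, counting overlapping matches as 1 site. CACGTG was in 6.02% of windows, and 0.429% held 2 or more. The GC box GGGCGG, present in 32.7% of windows, was found 3 times in Hk2, 2 times at the first Ldha start and 1 time in Tpi1. The share of G and C was 69.6% in Hk2, 67.2% and 54.4% at the Ldha starts and 58.4% in Tpi1. A match is a run of letters and not a bound site. Of the genes with ACGTG, Hk2 was at 1.58 on the log2 scale and Ldha at -1.03 by the mean of its probes and 0.31 by the brightest.

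Gpd1 encodes the cytosolic glycerol 3-phosphate dehydrogenase, an enzyme best known from fat, muscle and liver. It read 129 in the parental sample and 41805 in that of the small-molecule stem cells, where 33 of 13989 probes were brighter. The log2 difference of 8.34, or 7.93 times the probe SD, was the highest of the 8211 genes that passed the floor in both. Among the 9766 genes that passed the floor in 1 sample or both it was the 6th. It rests on 1 probe. With 50 added to each value before the logarithm the difference was 7.87. Its paralog Gpd1l read 127 and 57.7, at least 1.36-fold lower. Gpd2, the mitochondrial enzyme that completes the glycerol phosphate shuttle, and Gk, glycerol kinase, were not analysed here.

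Adipocyte markers were low beside it. Of 10 such markers 3 were measured, and all 3 were under the floor in the small-molecule stem cells: Plin1, a coat protein of fat droplets (102 and 70.3), Plin4 (131 and 82.8) and the transcription factor gene Cebpa (227 and 44.9). Their summed intensity was 460 and 198. Of 10 skeletal muscle markers 5 were measured, with sums of 623 and 776, and 1 of them, the embryonic myosin gene Myh3 (35.6 and 142), was called higher as measured and none was by its bound. The hepatocyte marker Apoa1 and the kidney tubule marker Slc34a1, the 2 measured of 9, were dim. Erythroid markers summed to 529 and 1592 over the 4 measured of 8. Of these, 3 were higher, or 2 by their bounds, the embryonic globin genes Hbb-bh1 (92.6 and 419) and Hba-x (371 and 1032), and Gata1 was dim. Of all genes, 22.1% were higher, or 20.5% by bounds.

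The other genes of the glycerol phosphate list went both ways. Of 17 measured genes of the 24 in that list, Gpd1 included, 4 were higher, 2 were lower (1 by its bound), 9 differed by less than 2-fold and 2 were dim. Without Gpd1, 14 of 16 were above the floor, and 3 were higher and 2 lower, where 22.1% and 22.6% of all genes above the floor were. The median log2 difference of the 17 was 0.0029, which is the reading of a dim gene, Aqp7. Over the 15 above the floor it was 0.40, or 0.0068 by their bounds. Over the 16 without Gpd1 it was -0.074. Gpat2, a mitochondrial glycerol phosphate acyltransferase expressed in germ cells, was at least 21.1-fold higher, at 41.4 and 1981. Dgat1, which makes triglyceride from diglyceride, was 4.28-fold higher, at 134 and 574, while its functional relative Dgat2 read 298 and 192. Pgp, the phosphatase that turns glycerol phosphate into glycerol, was 2.48-fold higher, at 8811 and 21860. Agpat3, an acyltransferase of the next step, was 4.30-fold lower at 1134 and 264. Gpat4 read 3895 and 2622, and Aqp3, a glycerol channel, 12330 and 9675, both under 2-fold.

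**Figure D3:**
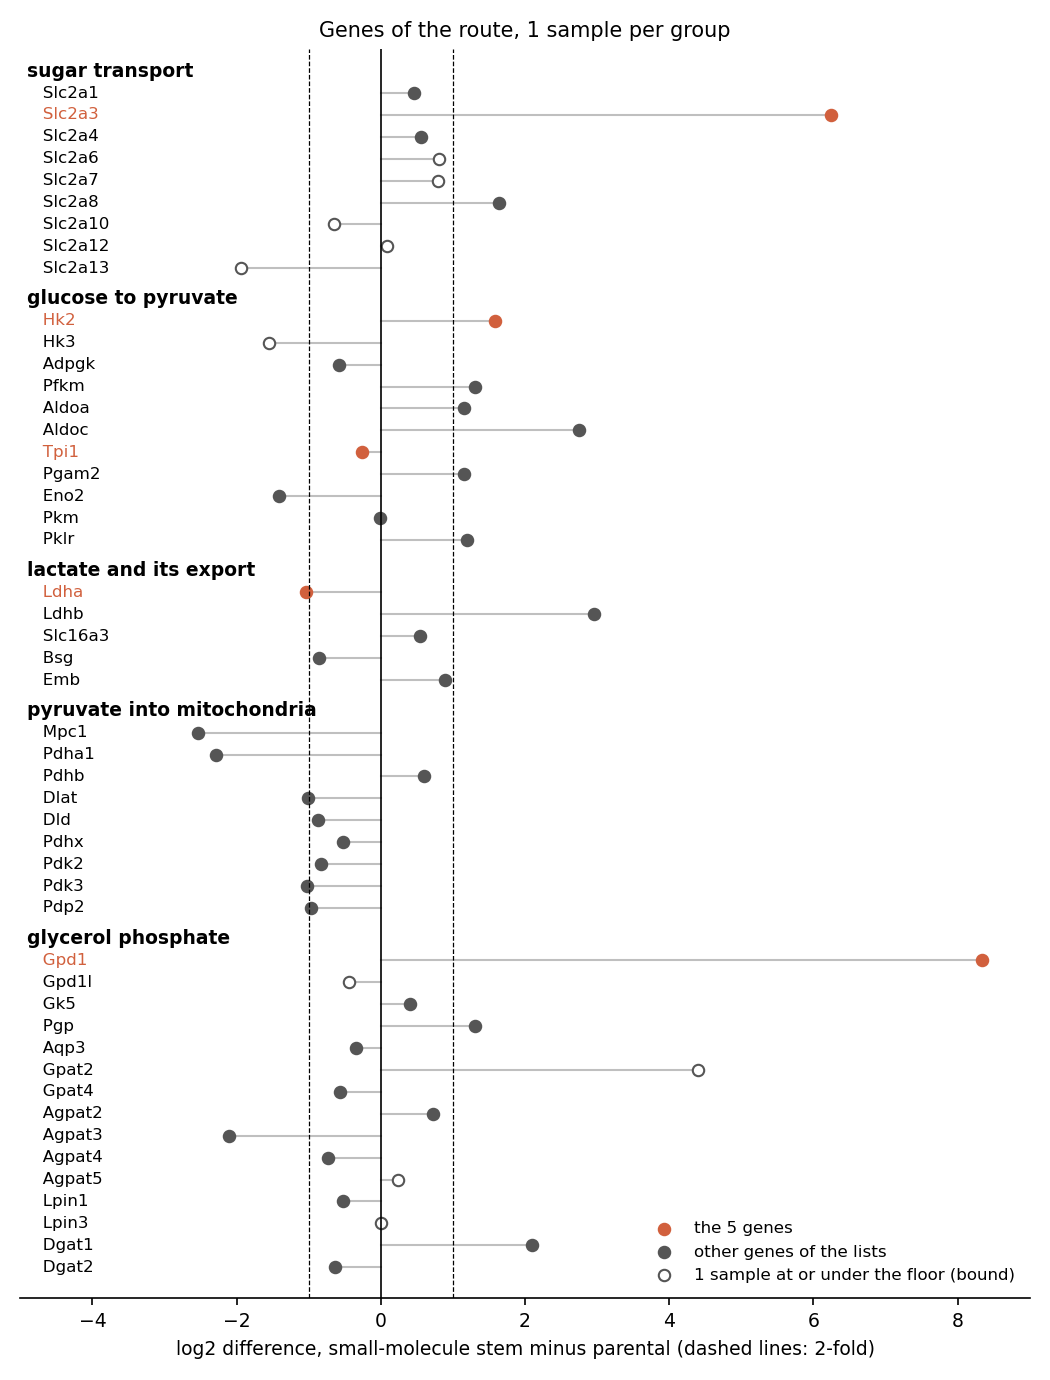
Log2 difference between the small-molecule-generated stem cells and the parental cells for each gene above the floor in a sample, from sugar transport to glycerol phosphate, 1 sample per group. Orange points are the 5 genes, open points are bounds because 1 sample was at or under the floor, and the dashed lines mark 2-fold. Gpd1 at 8.34 and Slc2a3 at 6.24 lie farthest from 0, followed by the bound for Gpat2 at 4.40.

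Pyruvate has a second fate, entry into mitochondria, which was read beside Ldha. Of 9 measured genes of 15, 4 were lower and none was higher, where 22.6% and 22.1% of all genes were, with a median log2 difference of -0.96. Between 3 and 7 were lower under the scalings run, and 2 with 50 added to each value. Mpc1, a subunit of the pyruvate carrier, was 5.82-fold lower at 2100.3 and 361. Pdha1, the catalytic subunit of pyruvate dehydrogenase, was 4.88-fold lower at 10661 and 2185. Its partner Pdhb, named here after its value was seen, went the other way by 1.51-fold, at 2944 and 4452. Dlat and Pdk3, also named after their values were seen, were each 2.02-fold lower, within the probe SD of 1.05. Pdk3 encodes a kinase that inhibits pyruvate dehydrogenase, so not every gene of the list favours entry.

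The regulators named in textbooks for Slc2a3, Hk2 and Ldha were measured in part. Hif1a, the hypoxia-inducible factor subunit, and Myc were not analysed here. Mycn, a MYC family gene of embryonic cells, was 11.2-fold higher at 157 and 1758, and Prkaa2, an AMP kinase subunit gene, at least 3.53-fold higher at 93.8 and 331. Txnip, a glucose-induced inhibitor of glucose uptake, was 3.38-fold lower at 7141 and 2113, and Arnt2, a dimer partner of hypoxia-inducible factors, 5.55-fold lower at 602 and 109. Epas1, itself such a factor and named after its value was seen, was 2.23-fold higher at 294 and 655. Of 16 measured regulators of 23, 4 were higher and 3 lower. These are 28.6% and 21.4% of the 14 above the floor, near the 22.1% and 22.6% of all genes. After centring on ribosomal protein genes 2 regulators were higher and 3 lower. Of 13 measured genes of the other hypoxia response, of 16, none was 2-fold higher and 7 were lower, or 6 by their bounds. Of all genes, 22.6% were lower, or 20.8% by bounds. The other 6 of the list differed by less, Car9 (294 and 461) and Egln3 (577 and 964) among them with higher values in the small-molecule stem cells. The median log2 difference was -1.33, or -0.79 by the bounds. Of this list, Pfkfb4 was also counted with the fructose 2,6-bisphosphate genes and Egln3 with the regulators. P4ha2, a collagen prolyl hydroxylase gene, was at least 16.2-fold lower at 1510 and 85.2, and Ndrg1, a stress-induced gene, 6.97-fold lower at 2565 and 368. The fibroblast markers Thy1 (40943 and 117) and S100a4 (31578 and 201) were lower in the same samples, and their part in the hypoxia list was not tested.

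**Figure D4:**
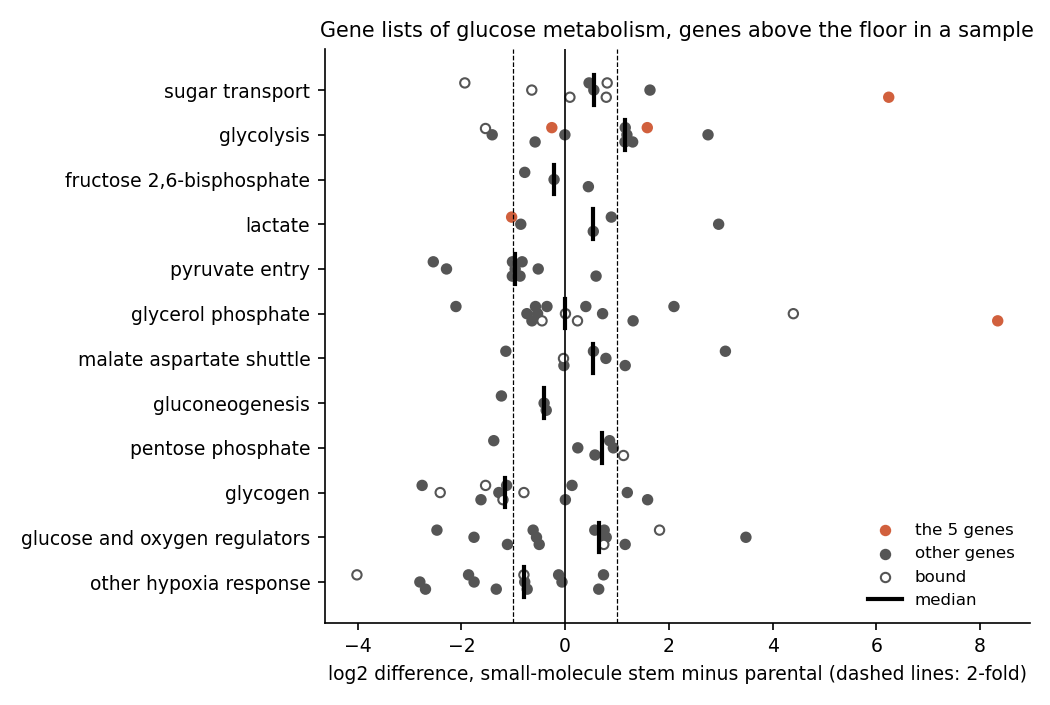
Log2 difference between the small-molecule-generated stem cells and the parental cells for genes of 12 lists of glucose metabolism and its control, 1 point per gene above the floor in a sample, 1 sample per group. Open points are bounds, set at the floor, the black bars are medians of the points shown, and the dashed lines mark 2-fold. The medians run from -1.16 for glycogen genes to 1.15 for glycolysis, and Gpd1 and Slc2a3, in orange, lie far outside their lists.

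Genes with the most similar difference were looked up among the 8211 genes above the floor in both samples, by the absolute gap in the log2 difference over the 2 samples. None of these lay within 0.1 of Gpd1, at 8.34. The nearest of them were Utf1, a chromatin factor of embryonic stem cells (191 and 20475), at a gap of 1.60, and the X-linked homeobox gene Rhox5 (152 and 13355), at 1.89. Genes at or under the floor in the parental sample were left out of the search. Among those left out were 2 pluripotency markers, named here after their values were seen. Fgf4 (39.7 and 18021) was at 8.83 as measured, or at least 7.59. Esrrb (40.6 and 33968) was at 9.71, or at least 8.50. Slc2a3 had 1 gene within 0.1, the oocyte-expressed gene Ooep (122 and 9304), at a gap of 0.014, with Rhox5 next at 0.22. Hk2 had 222 genes within 0.1, Tpi1 476 and Ldha 268, so many genes lie as near to them as those named. The nearest were Gja4 and Mrpl24 for Hk2, Med13 and Tango6 for Tpi1, and 1810055G02Rik and Esf1 for Ldha.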

How the data were processed

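Total RNA of 2 samples was amplified, labelled with Cy5 and hybridised to 1-colour Phalanx oligonucleotide arrays, per the labels' protocols. The deposited values are probe intensities that the authors had normalised, on a linear scale. Scanner, background correction and normalisation method were not given in the sources used here. Both columns had nearly the same quantiles, so a difference in total signal between the samples would not be seen. The series' design text speaks of 3 replicates for each sample, and 1 column for each was analysed here, so no test was made, and precision is limited by the number of arrays.

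Symbols came from the platform annotation and were updated by Entrez identifier from RefSeq's gene table (GRCm38.p6), for names alone. A single symbol was held by 12380 of 13989 probes, several by 0 and none by 1609, and 12364 matched by identifier while 16 kept the platform's symbol. Probes of a gene were averaged on the log2 scale. Calls used 2-fold and the 25th percentile floor. The members and lists were chosen with earlier results of these data known. Of 253 memberships in the lists (ribosomal proteins aside) 157 were measured. The genes named were the 5 members, any measured gene of the transport, glycolysis, lactate and glycerol phosphate lists, up to 2 each way of the others, and the 2 nearest in difference to each member. Other genes that are dim, that define a cell type, or that were not measured are named where a count turns on them. Alternatives covered scaling, probes, offset, floor and size rule. The computation was tested on simulated data. Python 3.11.15, numpy 2.4.6, pandas 2.3.3 and statsmodels 0.14.6 were used.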

Additional observations from a re-analysis of the deposited data

How the results depend on the processing

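Gpd1 lay between 7.87 and 8.36 on the log2 scale, Slc2a3 between 6.01 and 6.26, Hk2 between 1.36 and 1.61 and Tpi1 between -0.57 and -0.23 under the scaling, probe, offset and floor-value alternatives run for them. Ldha reversed with the brightest probe, to 0.31 from -1.03, because that probe differs in sign from the others, and was between -1.45 and -1.02 under its other alternatives. The count of members 2-fold lower was 0 with the brightest probe and 0 at a 4-fold size rule, both from 1. At 4-fold, 734 genes were higher and 1010 lower, from 2159 and 2209 at 2-fold. The glycolysis median moved from -0.0042 to 1.15 when dim genes were left out, since 4 of 15 genes are dim. Leaving out dim genes, centring each of 3 classes of probe identifier on its own median, and the median of the Ldha probes were chosen after seeing the data. A single value was said to have moved when it shifted by more than the probe SD of 1.05, since there are no replicates. No paired analysis was possible because each group had 1 sample. Low signal limits the transporter list, where 5 of 9 genes above the floor in a sample were at or under it in the other.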

Other observations

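Genes of glycogen and of the pentose phosphate route were read beside the members. Of 12 measured glycogen genes 8 were 2-fold or more lower, or 7 by their bounds, and 2 were higher (1 after centring on ribosomal protein genes), where 22.6% of all genes were lower and 22.1% higher, or 20.8% and 20.5% by bounds. Gyg, the glycogenin that primes glycogen, was 6.76-fold lower at 10752 and 1591, and Ppp1r3d, a subunit that brings a phosphatase to glycogen, at least 5.31-fold lower at 496 and 23.6. Gys1, the muscle glycogen synthase, was 3.01-fold higher at 329 and 990, and Pygm, the muscle phosphorylase, 2.30-fold higher at 350.2 and 804. Of 6 measured pentose phosphate genes 1 was higher and 1 lower, where 22.1% and 22.6% of all genes were, with a median log2 difference of 0.72. Tktl1, a transketolase-like gene, was at least 2.17-fold higher at 64.9 and 203. H6pd, the enzyme of the endoplasmic reticulum, was 2.59-fold lower at 1468 and 566.

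The malate aspartate shuttle is the other main route that moves reducing equivalents from cytosolic NADH into mitochondria beside that of Gpd1. Every gene of its list had a probe. That of Mdh1, the cytosolic malate dehydrogenase, named here after its value was seen, read 95.6 and 55.9, close to the floor and under it. Of the shuttle's 7 genes 2 were higher, or 1 after centring on ribosomal protein genes, and 1 was lower, or 2. As deposited, 22.1% of all genes were higher and 22.6% lower. Slc25a13, the aspartate glutamate carrier citrin, was 8.52-fold higher at 986 and 8405, Got1, the cytosolic aspartate aminotransferase, 2.23-fold higher at 3129 and 6986, and Slc25a11, the oxoglutarate carrier, 2.21-fold lower at 5194 and 2353. Of 4 measured gluconeogenesis genes 1 was lower and none was higher, beside the same shares of all genes. The lower one was Slc37a4, the glucose 6-phosphate transporter, by 2.34-fold at 705 and 301.

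The motif ACGTG was counted in the promoter windows of the lists, measured or not, by gene. It was in 8 of 24 genes of glycolysis (33.3%), 4 of 8 of lactate (50%) and 8 of 18 of glycerol phosphate (44.4%). Glycogen had it in 9 of 12 (75%) and the other hypoxia response in 9 of 13 (69.2%), beside 18.5% of 27025 genes with a window. The share was 18.2% in sugar transport (2 of 11), 0% in pentose phosphate (0 of 11) and 28.6% in the malate aspartate shuttle (2 of 7). Gluconeogenesis had 37.5% (3 of 8), fructose 2,6-bisphosphate 40% (2 of 5), pyruvate entry 42.9% (6 of 14) and the regulators 38.1% (8 of 21). Ribosomal protein genes had 25% (12 of 48). The GC box GGGCGG was in 66.7% of the glycogen genes and 92.3% of the other hypoxia response, beside 35.4% of all genes with a window. It was also in 72.7% of the pentose phosphate genes, which had no ACGTG. The part of base composition in the ACGTG shares was not tested. The hypoxia list was made up of genes known for that response.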
